A study of Mus musculus with 10 samples.

Results

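Of the 40537 nuclear promoter windows listed for all 3 pools of mouse metaphase II (MII) oocytes, 1277 were poor in CpG and carried almost no methylation in any pool. Each window spans 2000 bp around an annotated transcript start. A window was counted as CpG-poor when fewer than 30 of its CpG positions were covered in every pool, and as unmethylated when its level, the share of CpG calls that were methylated, lay under 5% in all 3 pools with at least 20 calls in each. The windows were thus chosen by their measured levels and coverage, which are given below as a description with no test. The pools were 3 libraries of 2-month Tet2KO females, 3 libraries of 11-month wild-type (WT) females and 4 libraries of 2-month WT females, all of strain C57BL6/129. Tet2KO mice lack Tet2, a dioxygenase that oxidises 5-methylcytosine; the labels do not describe the allele. The unit was the pooled table of a group, with 1 value per window, so no spread between libraries or animals can be given. The labels conflict on whether a library held a single oocyte or a batch of oocytes.

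A CpG is a cytosine followed by guanine, the main site of DNA methylation in mammals. In the growing mouse oocyte the de novo methyltransferase Dnmt3a and its cofactor Dnmt3l methylate mainly the bodies of transcribed genes, and most CpG islands and much of the untranscribed genome are left unmethylated. In most somatic cells, by contrast, CpG-poor promoters of silent genes are commonly methylated. Bisulfite calls count methylcytosine and hydroxymethylcytosine together.

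The windows carried Ensembl transcript identifiers and were named by position: 590 of the 1277 lay within 200 bp of a start in the RefSeq promoter table (build GRCm38.p6, which mm10 represents), for 450 gene symbols, 366 of them protein-coding and 84 long noncoding. The following promoter sequences, credited to that RefSeq table, show how few CpGs such starts hold. They belong to the muscle creatine kinase Ckm, the rod photoreceptor channel subunit Cngb1, the cytokine subunit gene Il12b, the zinc finger gene Zfp931 and the oocyte protein gene Padi6. Each runs 5′ to 3′ on the gene's strand, from 250 bases before the start to 50 bases after it, and capitals mark CpGs.

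Ckm, chr7:19410844-19411143, plus strand: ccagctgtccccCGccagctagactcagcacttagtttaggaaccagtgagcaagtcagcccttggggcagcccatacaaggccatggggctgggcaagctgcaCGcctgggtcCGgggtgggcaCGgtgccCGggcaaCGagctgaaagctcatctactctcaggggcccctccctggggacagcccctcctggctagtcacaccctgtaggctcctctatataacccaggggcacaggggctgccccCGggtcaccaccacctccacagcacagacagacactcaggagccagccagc
Cngb1, chr8:95306536-95306835, minus strand: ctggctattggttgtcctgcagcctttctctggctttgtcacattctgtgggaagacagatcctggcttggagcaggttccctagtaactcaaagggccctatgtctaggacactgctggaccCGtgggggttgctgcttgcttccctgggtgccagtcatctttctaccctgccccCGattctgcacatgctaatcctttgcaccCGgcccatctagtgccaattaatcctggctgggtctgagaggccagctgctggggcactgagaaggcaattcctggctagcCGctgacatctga
Il12b, chr11:44399813-44400112, plus strand: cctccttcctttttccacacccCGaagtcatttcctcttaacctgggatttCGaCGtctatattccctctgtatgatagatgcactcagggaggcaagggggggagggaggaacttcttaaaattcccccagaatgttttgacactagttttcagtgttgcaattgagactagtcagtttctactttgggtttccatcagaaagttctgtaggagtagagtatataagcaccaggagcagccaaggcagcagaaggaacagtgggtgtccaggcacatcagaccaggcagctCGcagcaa
Zfp931, chr2:178078376-178078675, minus strand: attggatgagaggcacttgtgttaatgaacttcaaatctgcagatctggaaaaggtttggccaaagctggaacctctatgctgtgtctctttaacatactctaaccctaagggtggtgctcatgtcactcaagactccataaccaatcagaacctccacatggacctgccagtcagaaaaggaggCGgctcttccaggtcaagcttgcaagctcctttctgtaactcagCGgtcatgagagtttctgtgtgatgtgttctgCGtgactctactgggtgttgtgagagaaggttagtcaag
Padi6, chr4:140742594-140742893, minus strand: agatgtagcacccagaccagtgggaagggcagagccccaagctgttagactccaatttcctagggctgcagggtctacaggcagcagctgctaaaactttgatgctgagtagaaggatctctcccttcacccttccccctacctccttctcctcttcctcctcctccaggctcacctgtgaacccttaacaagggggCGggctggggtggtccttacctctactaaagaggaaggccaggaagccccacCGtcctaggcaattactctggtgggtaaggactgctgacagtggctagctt

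These 5 promoters held 7 CpGs at Ckm, 4 at Cngb1, 4 at Il12b, 3 at Zfp931 and 2 at Padi6. Over the 468 promoters matched to the unmethylated CpG-poor windows the median was 5 CpGs in 300 bp, with quartiles of 3 and 7, and 11 promoters held none. The ratio of observed to expected CpG had a median of 0.248, and it lay under 0.48 in 89.3% of these promoters. At these matched starts the few covered positions of a window thus went with few CpGs in 300 bp of its sequence. A further 687 unmethylated CpG-poor windows had no matched start, so the CpGs in their sequence were not counted. In the 278 promoters of CpG-poor windows that were over 80% methylated in all 3 pools, the median was 4 CpGs and the ratio 0.216. The CpG counts of unmethylated and methylated CpG-poor promoters thus overlapped, with quartiles of 3 and 7 against 2 and 6. In the 4574 promoters of CpG-dense windows (80 or more covered positions) that were unmethylated in all 3 pools the median was 28 CpGs and the ratio 0.857.

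**Figure D1:**
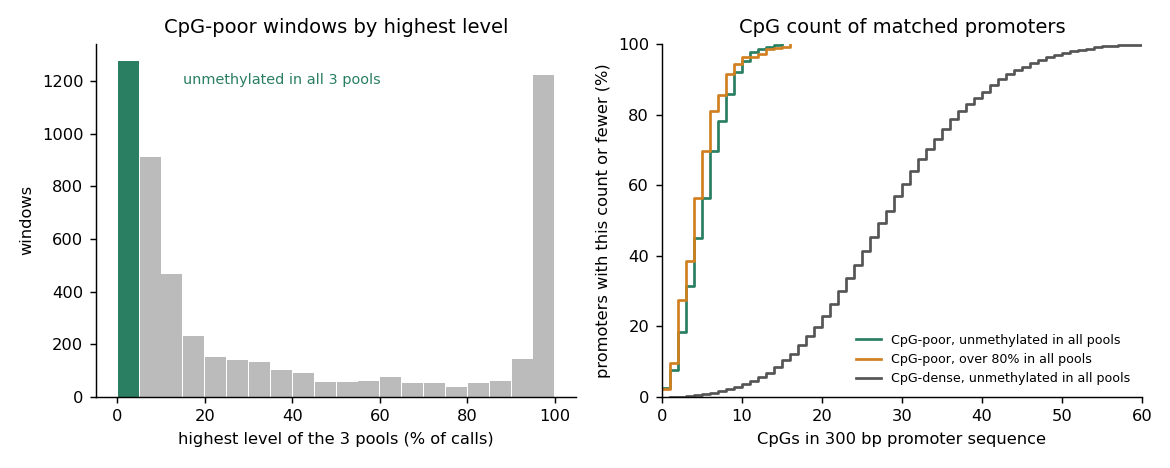
Left, number of CpG-poor windows by the highest level of the 3 pools in steps of 5%; the coloured bar holds the 1277 windows under 5% and the bar at the right end those near full methylation. Right, the share of matched promoters with a given number of CpGs or fewer in 300 bp; the curves of unmethylated and of highly methylated CpG-poor promoters lie together (medians 5 and 4), far left of the unmethylated CpG-dense promoters (median 28).

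The levels of CpG-poor windows peaked at both ends of the scale. Of 5373 CpG-poor windows with enough calls, 1277 (23.8%) were under 5% in all 3 pools, and 1173 were over 80% in all 3. By the highest level of the 3 pools, 213 windows were at 0, a further 912 lay between 5% and 10%, and 267 lay between 40% and 60%. Among all 33879 shared windows with enough calls, 52.2% were under 5% in every pool. That share changed with the number of covered CpG positions: it was 14.0% in windows with 5 to 14 covered positions, 27.8% with 25 to 29, and 66.3% with 80 or more. Among named CpG-poor windows it was 20.8% where the 300 bp promoter held 0 to 2 CpGs and 32.6% where it held 9 or more. By calls in the shallowest pool it was 23.2% with 20 to 24 calls, 27.9% with 40 to 49 and 23.6% with 50 or more.

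The unmethylated CpG-poor windows were thinly covered. The median window held 29 calls in 2-month Tet2KO, 68 in 11-month WT and 43 in 2-month WT. With 0 methylated calls at these depths the upper Wilson 95% limit is 11.7%, 5.35% and 8.20%, in the same order of pools. In a single pool that limit lay under 5% for 2 windows in 2-month Tet2KO, 159 in 11-month WT and 39 in 2-month WT. Over the 3 pools together the median window held 146 calls, and the upper Wilson 95% limit of the level lay under 5% for 637 windows and under 10% for 1275 of the 1277. Intervals and limits cover counting error only, since calls from PCR copies and from neighbouring CpGs of a read are not independent. Some windows also overlap: the 1277 windows form 1052 separate loci, and 390 windows share a locus with another.

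Methylated calls were few in each pool. No methylated call was seen at 879 windows in 2-month Tet2KO, at 457 in 11-month WT and at 709 in 2-month WT, and at 213 windows there was none in any pool. Added over all windows, 456 of 41647 calls were methylated in 2-month Tet2KO, 1582 of 90993 in 11-month WT and 816 of 60796 in 2-month WT. These sums give levels of 1.09% (Wilson 95% interval 0.999 to 1.20) in 2-month Tet2KO, 1.74% (1.66 to 1.83) in 11-month WT and 1.34% (1.25 to 1.44) in 2-month WT. The pools thus differed by less than 1 percentage point: by -0.247 points for 2-month Tet2KO minus 2-month WT, 0.396 for 11-month WT minus 2-month WT, and -0.644 for 2-month Tet2KO minus 11-month WT. The limit of 5% bounded these values, and it admits at most 1 methylated call at the median depth of 2-month Tet2KO, 3 in 11-month WT and 2 in 2-month WT; among the 65 windows with at least 50 calls in each pool the difference of 2-month Tet2KO minus 2-month WT was -0.00644 points (Newcombe 95% interval -0.508 to 0.515). It was -0.427 points under a limit of 10% and -0.391 with the deposited fraction, so its size depended on these choices. In the unmethylated CpG-dense windows the summed levels were 1.28%, 1.68% and 1.65% in the same order.

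**Figure D2:**
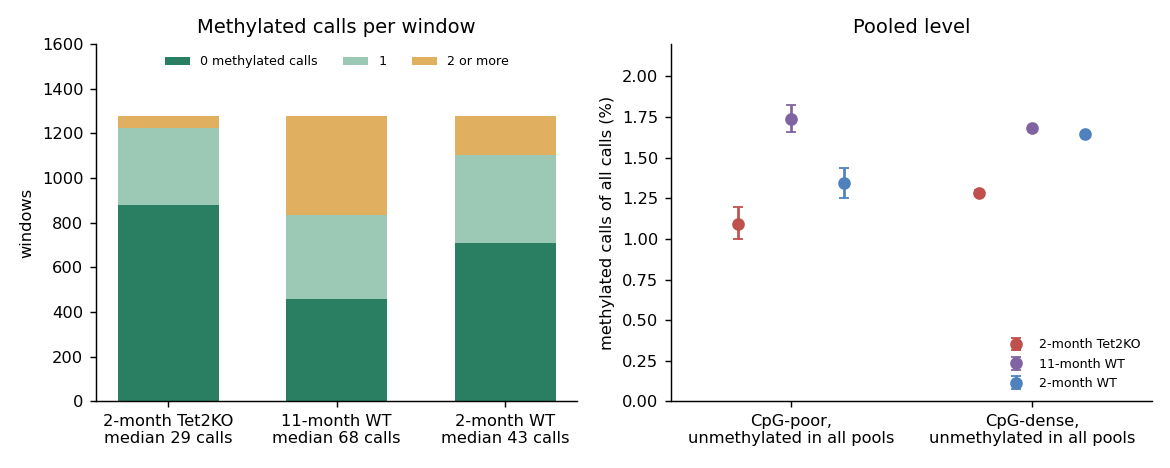
Left, the 1277 unmethylated CpG-poor windows in each pool, divided by their number of methylated calls (879, 457 and 709 windows had none, in the order plotted). Right, methylated calls as a percentage of all calls, with Wilson 95% intervals for counting error; CpG-poor windows lay between 1.09% and 1.74% and CpG-dense ones between 1.28% and 1.68%.

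No single window differed much between pools, which the rule fixed in part. Differences of 20 points or more could not occur among the 1277 windows; over all 33879 windows they made up 2.22% higher and 2.77% lower in 2-month Tet2KO against 2-month WT, 2.02% and 2.41% in 11-month against 2-month WT, and 1.38% and 1.43% in 2-month Tet2KO against 11-month WT. By 3 points or more, 132 of the 1277 windows were higher and 162 lower in 2-month Tet2KO than in 2-month WT, where 15.2% and 24.6% of all windows were. In 11-month against 2-month WT, 169 were higher and 84 lower, where 15.4% and 21.5% of all windows were, and in 2-month Tet2KO against 11-month WT 105 were higher and 207 lower, where 13.9% and 16.8% of all windows were. In the WT age comparison 1 of the 1277 windows had a Newcombe 95% interval for its difference that lay off 0, where 10.4% of all windows had an interval above 0 and 18.3% below. That window belongs to Krt13, a keratin of the mucosal epithelium, with 6 of 126 calls methylated in 11-month WT and 0 of 125 in 2-month WT; it had 0 of 32 in 2-month Tet2KO. In both Tet2KO comparisons the interval excluded 0 at none of the 1277 windows, where it lay above 0 at 7.71% and below at 15% of all windows against 2-month WT, and at 8.07% and 8.67% against 11-month WT. These interval counts were also bounded in advance, since both levels lay under 5% at low depth. The 1277 windows had medians of 29, 68 and 43 calls in 2-month Tet2KO, 11-month WT and 2-month WT. Over the 40537 windows listed for all 3 pools the medians were 79, 245 and 131. The counts are therefore no measure of stability.

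Differences close to the 5 points that the rule allows rested on few methylated calls. Trim66 had 3 of 62 calls methylated in 11-month WT and 0 of 54 in 2-month WT, and Zfp85os had 4 of 81 and 0 of 31. Ptpn7, a phosphatase of blood cells, had 0 of 27 in 2-month Tet2KO and 4 of 83 in 2-month WT. Tmem140 had 1 of 21 in 2-month Tet2KO and 0 of 21 in 2-month WT. A window under the limit in one pool can therefore pass it in another through 1 call. With 50 or more calls in every pool, the named windows nearest below the limit were Krtap4-16, whose highest level was 4.69%, Miox with 4.29% and Sipa1l3 with 3.88%. Those nearest above it were Grk1 with 5.08%, Zfp981 with 5.08% and Gadl1 with 5.26%.

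The rule used the levels of all 3 pools, so windows were also chosen on 2 pools alone and read in the remaining one. Those under 5% in the pool left to read are then the 1277 windows, and the share they make up is the reading. The limits on calls and covered positions still used all 3 pools. The shares of all CpG-poor windows include the 1277 windows and the 1173 over 80% in all pools. The reading is thus a description and no independent support for the choice. Of 1572 CpG-poor windows under 5% in both WT pools, 81.2% were also under 5% in 2-month Tet2KO, while 42.9% of all CpG-poor windows were. Of 1669 windows under 5% in 2-month Tet2KO and 2-month WT, 76.5% were under 5% in 11-month WT, against 39.0% of all. Of 1663 windows under 5% in 2-month Tet2KO and 11-month WT, 76.8% were under 5% in 2-month WT, against 40.8% of all. In the pool left to read, 18, 9 and 39 of these windows reached 20% or more, in the order Tet2KO, 11-month WT and 2-month WT, where 39.5% to 40% of all CpG-poor windows did. None was over 80%.

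A few genes stood out in the pool left to read. Spem1, a protein of maturing sperm, was at 42.7% of 82 calls in 2-month WT, against 0 of 55 in 2-month Tet2KO and 0 of 46 in 11-month WT. Pakap was at 71.9% of 32 calls in 2-month WT, against 1 of 58 and 5 of 121 in the other pools. Cald1, the actin-binding caldesmon, had 10 of 43 calls methylated (23.3%) in 11-month WT and none in the other pools. In 2-month Tet2KO the highest named window, Entpd8, was at 28.6% of 21 calls.

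Genes of the eye had the highest share of unmethylated windows among the gene lists with 10 or more CpG-poor windows. Of 15 CpG-poor windows of eye and photoreceptor genes, 10 (66.7%, Wilson 95% interval 41.7 to 84.8), at 7 genes, were unmethylated in all pools, where 23.8% of all CpG-poor windows were. Of its other windows, 1 was over 80% in all pools. Cngb1 had 0 of 39 calls methylated in 2-month Tet2KO, 0 of 102 in 11-month WT and 1 of 57 in 2-month WT. Crybb1, a lens crystallin, had 0 of 26, 1 of 137 and 0 of 36 in the same order of pools, which is kept in the lists that follow. The lens crystallins Crygb, Crygc and Crygf, all on chromosome 1, had at most 1 methylated call in any pool. Cryba1 had at most 2, and Lim2, a lens membrane protein, at most 1.

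Genes of immune cells were also among them. Of 27 CpG-poor windows of chemokine, interleukin and interferon genes and their receptors, 12 (44.4%, interval 27.6 to 62.7), at 6 genes, were unmethylated. The share of all CpG-poor windows was the same 23.8%. That interval counts overlapping windows separately. With 1 window per locus the share was 33.3% (interval 16.3 to 56.3), and with names within 50 bp 30% (14.5 to 51.9). Both of these intervals include the 23.8%. Il12b had no methylated call in 40, 40 and 53 calls. Of the other 5 genes, 3 named here encode receptors: Il18r1 had 0 of 31, 0 of 56 and 2 of 65, Il17re 0 of 37, 2 of 48 and 0 of 53, and Il21r 0 of 31, 1 of 58 and 5 of 113. Of 60 windows of surface receptors of lymphoid and myeloid cells, 19 (31.7%, interval 21.3 to 44.2) were unmethylated and 7 were over 80%. Itgam, an integrin of macrophages and granulocytes, had no methylated call in 39, 84 and 51 calls. Cd300a, an inhibitory receptor, had 0 of 32, 4 of 104 and 1 of 77. Around the segments of antigen receptor genes, 10 of 35 CpG-poor windows (28.6%, interval 16.3 to 45.1) were unmethylated and 0 were over 80%.

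Muscle and zinc finger genes also had shares above the 23.8% of all CpG-poor windows. Of 23 windows of striated muscle genes, 9 (39.1%, interval 22.2 to 59.2), at 4 genes, were unmethylated; with 1 window per locus the share was 28.6%. Ckm had 0 of 57, 3 of 104 and 1 of 61 calls methylated. Tnnt2, the cardiac troponin T, had 1 of 26, 1 of 92 and 0 of 42, and Ckmt2, the mitochondrial creatine kinase of muscle, had 0 of 30, 1 of 57 and 0 of 49. The fourth gene was Mybph, a myosin-binding protein, with 0 of 22, 0 of 70 and 1 of 30. Of 40 CpG-poor windows of Zfp zinc finger genes, which encode mostly DNA-binding transcription factors, 17 (42.5%, interval 28.5 to 57.8) at 12 genes were unmethylated and 0 were over 80%. Zfp931 had no methylated call in 61, 64 and 41 calls, and Zfp429 none in 43, 71 and 37. Most windows of the family were not CpG-poor: the median over all 474 Zfp windows was 58 covered positions.

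Keratin genes and genes of the liver and gut also gave unmethylated windows, the liver and gut lists at shares close to the 23.8% of all CpG-poor windows. Of 20 windows of keratin and keratin-associated genes 7 (35%, interval 18.1 to 56.7) were unmethylated and 0 were over 80%. Krtap4-16, a hair protein gene whose 300 bp promoter holds no CpG, had 3 of 64, 3 of 98 and 0 of 65 calls methylated. Of 19 windows of secreted liver proteins 5 (26.3%) were unmethylated, and 15.4% with 1 window per locus. They include Fga, a fibrinogen chain, with no methylated call in 21, 46 and 47 calls, and Apoc4, an apolipoprotein, with 0 of 36 calls methylated in 2-month Tet2KO, a level of 4.07% in 11-month WT and, in 2-month WT, 1 of 55. Of 13 cytochrome P450 windows 4 were unmethylated, at Cyp8b1, a bile acid enzyme, and Cyp2j13. Of 15 windows of digestive enzymes and gut peptides 4 (26.7%) were unmethylated and 5 were over 80%. Ppy, the pancreatic polypeptide, had 0 of 29, 3 of 125 and 1 of 42. Npy4r, a receptor for that peptide, had the most calls of the list genes and most-covered genes named here after Eif4a3l1: it had 0 of 64, 1 of 205 and 0 of 72, a level of 0.293% (Wilson 95% interval 0.0518 to 1.64) over the pools. Miox, a kidney enzyme of inositol breakdown that is in none of these lists and is named for its number of calls, had 0 of 58, 3 of 70 and 2 of 64.

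Genes of oocytes and sperm contributed few windows. Of 20 CpG-poor windows of oocyte and maternal-effect genes, 4 (20%, interval 8.07 to 41.6) were unmethylated, against 23.8% of all; with 1 window per locus the share was 36.4%, so its side of the overall share depended on that choice. Padi6, a protein of the lattices in the oocyte cytoplasm, had 0 of 31, 0 of 74 and 1 of 90 calls methylated. Nlrp2, a maternal-effect gene, had 0 of 20, 1 of 21 and 0 of 27, and Tcl1b2 had 0 of 27, 1 of 48 and 1 of 42. The other was Unc13c, a synaptic protein gene that the list holds, with 0 of 42, 0 of 56 and 1 of 61. Of 40 windows of sperm and spermatid genes 4 (10%, interval 3.96 to 23.1) were unmethylated and 5 were over 80%. The unmethylated windows of this list include Izumo1, the sperm protein of gamete fusion, with 1 of 27, 1 of 58 and 1 of 69. Rec114, which acts in the DNA breaks of meiosis, is in neither of these lists and is named for its number of calls. It had 0 of 75, 4 of 110 and 0 of 63, with 12 CpGs in its promoter. Of 61 olfactory receptor windows 9 (14.8%, interval 7.96 to 25.7) were unmethylated and 2 were over 80%, so most lay between these classes.

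The remaining lists held 0 to 112 unmethylated windows. Unmethylated windows were 9 of 29 for ion channels, 12 of 48 for solute carriers, 112 of 463 for predicted genes and unnamed clones, 5 of 25 for serine proteases and their inhibitors, 3 of 11 for immunity GTPases (27.3%, and 16.7% with 1 window per locus), 2 of 12 for defensins and other antimicrobial peptides and 1 of 11 for milk, seminal and salivary proteins (9.09%, and 0% with 1 window per locus). They were 1 of 2 for vomeronasal and taste receptors, 1 of 2 for epidermal barrier genes, 1 of 3 for globins and erythroid proteins and 0 of 4 for prolactins and pituitary hormones. The list of microRNAs held 5 windows, and its 3 unmethylated ones belong to Mir99ahg, a long noncoding host gene. Slc30a3, a zinc transporter of synaptic vesicles, held 15 CpGs in its promoter and had 1 of 102, 0 of 72 and 0 of 41 calls methylated. None of 41 housekeeping windows was CpG-poor.

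**Figure D3:**
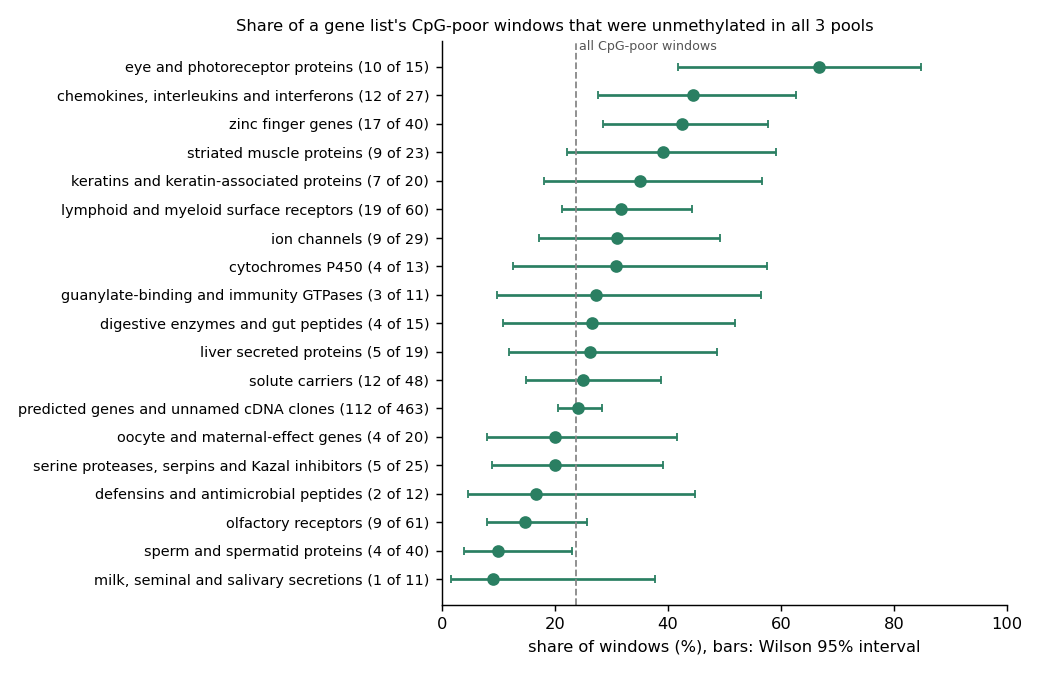
Share of the CpG-poor windows of each gene list that were unmethylated in all 3 pools, with Wilson 95% intervals for counting error, for lists with 10 or more such windows; the dashed line marks the 23.8% over all CpG-poor windows. Eye and photoreceptor genes lay highest at 66.7%, and most intervals include the line. Overlapping windows are counted separately.

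Unmethylated CpG-poor windows lay outside gene bodies more often than methylated ones in this genome annotation. The centre of 26.2% of them (Wilson 95% interval 23.9 to 28.7) lay inside a protein-coding gene, 2 kb or more from both its ends, against 63.5% (60.7 to 66.2) of CpG-poor windows over 80% in all pools and 34.8% of the remaining CpG-poor windows. Position was not used to choose the windows. Counted the other way, 16.0% of the 2096 CpG-poor windows inside genes were unmethylated and 35.5% were over 80%, while of the 3277 outside 28.7% were unmethylated and 13.1% were over 80%. Annotated gene positions do not show which genes these oocytes transcribed. Among windows with no matched start the order was the same, with 29.0% of 687 unmethylated and 69.5% of 827 highly methylated windows inside genes.

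Nearby CpG-poor windows tended to share their state. For an unmethylated window whose nearest non-overlapping CpG-poor window lay 2 to 10 kb away, that neighbour was unmethylated in 43.2% of 125 cases (interval 34.8 to 52.0) and over 80% in 4.0%. For a highly methylated window at that distance, the neighbour was unmethylated in 7.35% of 136 cases (interval 4.04 to 13) and over 80% in 66.2%. For the remaining CpG-poor windows it was unmethylated in 25.4% of 287 cases. The intervals treat windows as independent, although a pair can count from both sides and overlapping windows can share a neighbour. At 50 to 100 kb, neighbours of unmethylated windows were unmethylated in 18.9% of cases and those of highly methylated windows in 19.2%, but beyond 200 kb the shares were 29.4% and 19%. With 1 window per locus, the share within 10 kb was 40.4% for unmethylated and 67.3% for highly methylated windows.

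**Figure D4:**
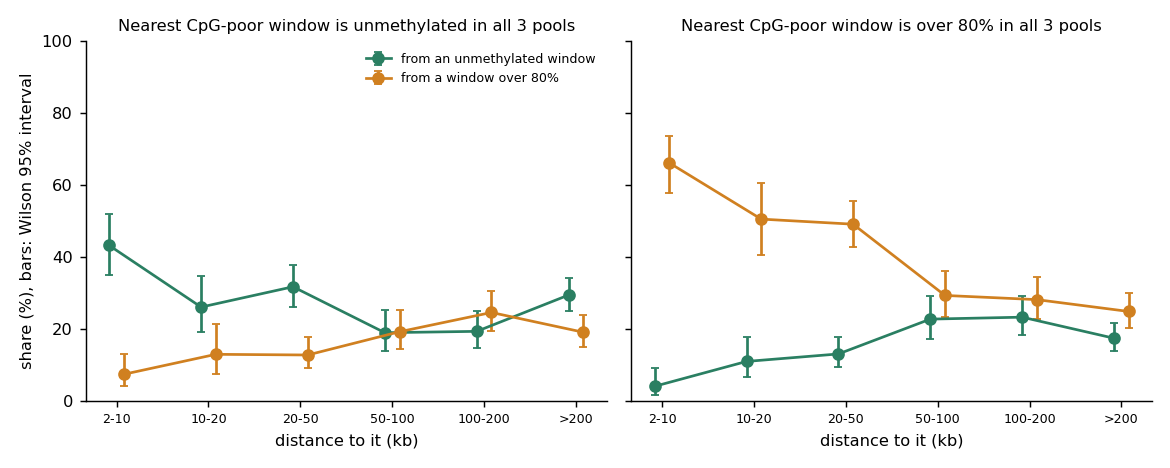
Share of CpG-poor windows whose nearest non-overlapping CpG-poor window was unmethylated (left) or over 80% (right) in all 3 pools, against the distance to it, with Wilson 95% intervals; windows that start from an unmethylated and from a highly methylated window are drawn apart. Within 10 kb unmethylated windows had unmethylated neighbours in 43.2% of cases and highly methylated windows in 7.35%, and at 50 to 100 kb the values were 18.9% and 19.2%. The intervals treat windows as independent.

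Some unmethylated windows formed runs. With gaps of up to 50 kb, 173 of the 1052 loci lay in 79 runs of 2 or more loci, and 10 runs held 3 or more. Runs of other CpG-poor windows were not counted, so these counts have no share to be set beside. The runs were built from unmethylated loci, which fixes in part the state of the windows they hold. The longest, of 6 loci, holds diversity, joining and constant segments of the T cell receptor alpha and delta genes (chromosome 14, 54121226 to 54221520, mm10), where 7 of 18 CpG-poor windows were unmethylated and the highest level of the others was 40.9%. A run of 3 loci holds Rnase10, Rnase11 and Rnase12, of the ribonuclease A family (chromosome 14, 51006751 to 51058242), and another holds Padi6 and Padi4, which encode peptidylarginine deiminases (chromosome 4, 140741644 to 140805022). In both, all 3 CpG-poor windows were unmethylated. Slfn3 and Slfn4, of the Schlafen family, lie in a run where all 4 were (chromosome 11, 83174186 to 83224575). A run at S100a3 and S100a16, calcium-binding proteins (chromosome 3, 90536254 to 90602903), had 6 of 8 unmethylated. None of the 10 runs held a window over 80% in all pools.

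Different starts of the same gene could differ fully. Of 44 genes with an unmethylated CpG-poor window and a second measured window apart from it, 26 had further windows that all lay under 5% in all pools, and 2 had a second window over 80% in all pools. Among all 33879 shared windows with enough calls, 52.2% were under 5% in every pool. The same counts were not made for other genes, so they do not set these 44 genes apart. The 2 genes with a second window over 80% were Dnmt1, the maintenance DNA methyltransferase, and Slc38a4, an amino acid transporter that is imprinted and expressed from the paternal allele in the mouse. Mouse oocytes are known to transcribe Dnmt1 from a separate start upstream of the CpG-rich start that somatic cells use. The promoter sequences of both starts of each gene, from the same RefSeq table and with CpGs in capitals, follow.

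Dnmt1, unmethylated upstream start, chr9:20959839-20960138, minus strand: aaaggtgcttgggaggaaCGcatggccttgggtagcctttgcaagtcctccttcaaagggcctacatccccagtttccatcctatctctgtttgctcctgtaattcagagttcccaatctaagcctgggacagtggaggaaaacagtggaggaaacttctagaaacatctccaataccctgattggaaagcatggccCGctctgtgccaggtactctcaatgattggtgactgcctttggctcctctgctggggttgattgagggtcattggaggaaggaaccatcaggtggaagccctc
Dnmt1, methylated downstream start, chr9:20952574-20952873, minus strand: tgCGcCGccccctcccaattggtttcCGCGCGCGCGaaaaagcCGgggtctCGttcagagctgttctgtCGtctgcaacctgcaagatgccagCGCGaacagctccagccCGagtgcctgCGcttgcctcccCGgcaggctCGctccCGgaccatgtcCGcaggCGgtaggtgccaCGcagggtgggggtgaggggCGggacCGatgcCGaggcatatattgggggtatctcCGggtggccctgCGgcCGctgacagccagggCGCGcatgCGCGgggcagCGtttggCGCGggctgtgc
Slc38a4, unmethylated downstream start, chr15:97020310-97020609, minus strand: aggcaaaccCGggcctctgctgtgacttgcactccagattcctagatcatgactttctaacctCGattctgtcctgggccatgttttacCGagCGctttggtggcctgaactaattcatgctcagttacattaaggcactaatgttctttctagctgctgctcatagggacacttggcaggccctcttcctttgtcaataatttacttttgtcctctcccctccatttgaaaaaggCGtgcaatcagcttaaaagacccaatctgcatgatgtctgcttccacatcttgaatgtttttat
Slc38a4, methylated upstream start, chr15:97055907-97056206, minus strand: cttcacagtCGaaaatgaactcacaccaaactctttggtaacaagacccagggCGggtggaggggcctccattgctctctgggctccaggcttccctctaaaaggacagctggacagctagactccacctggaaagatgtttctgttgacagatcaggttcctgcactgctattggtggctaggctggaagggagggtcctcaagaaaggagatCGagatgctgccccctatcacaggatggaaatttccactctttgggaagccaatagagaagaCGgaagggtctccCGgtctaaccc

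At Dnmt1 the unmethylated window (chromosome 9, 20958889 to 20960888) is centred on the outermost annotated start, whose promoter holds 2 CpGs. It had 0 of 47 calls methylated in 2-month Tet2KO, 2 of 51 in 11-month WT and 1 of 42 in 2-month WT. The window 7265 bp downstream, centred on a start with 33 CpGs, was at 98.2% of 109 calls in 2-month Tet2KO, 95.3% of 257 in 11-month WT and 97.0% of 101 in 2-month WT. A window 6909 bp downstream that overlaps it was at 96.3%, 92.6% and 100% in the same order. The CpG-poor start was thus unmethylated and the CpG-rich start methylated in every pool. At Slc38a4 the order along the gene was the reverse. The window at the outermost start (chromosome 15, 97054957 to 97056956) was at 97.9% of 48 calls in 2-month Tet2KO, 98.3% of 120 in 11-month WT and 95.5% of 44 in 2-month WT. The window 35634 bp downstream of it had 1 of 61, 0 of 68 and 2 of 72 calls methylated, and both Slc38a4 promoters hold 5 CpGs.

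**Figure D5:**
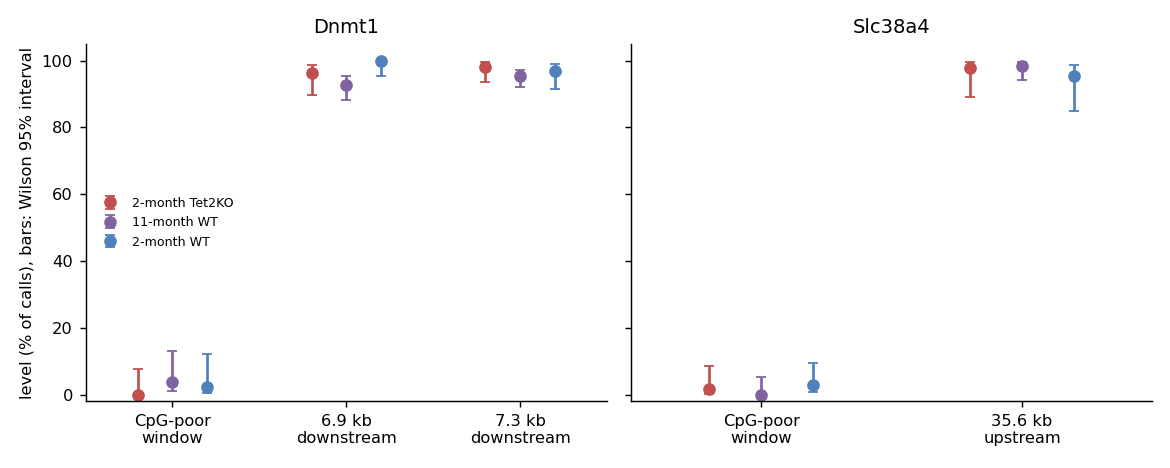
Levels of the windows of Dnmt1 (left) and Slc38a4 (right) in the 3 pools, as percentage of calls with Wilson 95% intervals for counting error; windows stand side by side, not to scale, with their distance from the CpG-poor window. The CpG-poor windows lay between 0% and 3.92%, and the other windows of the same genes between 92.6% and 100%.

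Most short sequence motifs separated the unmethylated CpG-poor promoters from CpG-dense ones more than from methylated CpG-poor ones, while CCAAT box shares were close in all 3 groups. Motifs were searched on both strands of the 300 bp, and a match is a description of the letters. The TATA box core TATAAA occurred in 70 of the 468 promoters, in 12.6% of the 278 methylated CpG-poor promoters, in 4.37% of the unmethylated CpG-dense promoters and in 13.6% of all 32851 promoters of the table. The GC box GGGCGG occurred in 16.7%, 17.3%, 78.6% and 35.7% in the same order. The CCAAT box, with the letters CCAAT, occurred in 37.2%, 34.5%, 34.1% and 37.4%. The E-box CANNTG, which reads the same on both strands, occurred in 76.5% (interval 72.4 to 80.1) of the unmethylated and 87.4% (83.0 to 90.8) of the methylated CpG-poor promoters. It occurred in 56.5% of the unmethylated CpG-dense promoters and in 72.3% of all. The homeobox core TAATTA occurred in 6.62%, 4.32%, 1.27% and 5.29%, and the AP-1 site TGANTCA in 10.9%, 12.6%, 3.08% and 7.81%, in the order first given. No 2 of these motifs were required to be apart. The GC box holds a CpG itself, and the classes were chosen by covered CpG positions, which bears on its share. The median GC share was 51.3% in the unmethylated CpG-poor and 67% in the unmethylated CpG-dense promoters. Base composition was not accounted for.

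The oocyte label was checked at imprinted genes that carry maternal methylation. Windows of Peg3, Snrpn, Mest, Kcnq1ot1 and Plagl1 lay between 93.8% and 100% in every pool. Mcts2 was at 42 of 56 calls in 2-month Tet2KO, 87.2% in 11-month WT and 92.9% in 2-month WT. Gnas and Grb10 each had windows of both kinds, and the Inpp5f window was at 0.658%, 0.424% and 1.04% in the order of pools used above. Some starts of these genes were thus methylated and others not. Which start of a gene carries the maternal mark was not looked up. Neither the high nor the low windows can therefore decide the label, and no conclusion on it is drawn here. Planned genes such as H19 and Peg10 gave no reading. None of the genes in this check gave an unmethylated CpG-poor window. Over their whole tables the pools held 8610762 CpG calls in 2-month Tet2KO, 30431118 in 11-month WT and 15046863 in 2-month WT, mitochondrial windows included. Unmethylated CpG-poor windows lay on all 20 chromosomes analysed, from 20 windows on chromosome 18 to 125 on chromosome 7, which were 21.1% and 21.4% of their CpG-poor windows. The share ran from 17.3% on chromosome 5 to 30.1% on chromosome 3. On the X chromosome, where the 2-month WT table breaks off, 29 of 157 CpG-poor windows (18.5%) were unmethylated.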

How the data were processed

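Low-input bisulfite libraries of MII oocytes were made per the labels' protocols. Per the submitters' processing notes, the tools were Trimmomatic and Bismark (version field 12.5) and the build mm10, with no role given. The authors deposited 1 pooled table per group, which holds whole-number counts of methylated CpG calls per window, the coverage as the number of all CpG calls, the number of covered CpG positions, and a fraction per window. The deposited fraction differs from methylated over all calls; how it was averaged is not given in the sources used here, and it served as an alternative. The smallest listed window has 10 calls, and the fewest positions are 5. In the table of 2-month WT 1 truncated line at the end was dropped. Columns of other samples were not present.

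Windows were joined on position and transcript, without mitochondrial and Y windows, with Python 3.11.15 and pandas 2.3.3. Levels are methylated over all calls, with Wilson 95% and Newcombe 95% intervals. Values are pooled, so no test was run. Classification and intervals were also run on simulated data, and no result of that run is given here. The simulated run is therefore no measure of errors near the limit, or at the low levels and depths of these windows. The members, lists and rules were chosen with earlier results of these data known. The third-pool reading, the position inside genes, the neighbours, the runs and the antigen receptor group were added after the data were seen. Named genes were those with most calls in the shallowest pool (overall and per list), the extreme differences, those next to the limit, and genes with a methylated second window; the genes of runs and exceptions were named after their values were seen, as were Crygc, Cryba1 and Lim2. Names matched 590 of 1277 windows by position.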

Additional observations from a re-analysis of the deposited data

How the results depend on the processing

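The differences between pools kept their sign in the alternatives that recomputed them, which leaving out the X chromosome did not, but with at least 50 calls in each pool all 3 intervals included 0, and with fewer than 20 covered positions that of 11-month minus 2-month WT did (-0.00511 to 0.591). With at least 50 calls in each pool 65 windows were left; their levels were 1.51% in 2-month Tet2KO, 1.93% in 11-month WT and 1.52% in 2-month WT, Tet2KO differed by -0.00644 points (-0.508 to 0.515) from 2-month WT and by -0.415 (-0.907 to 0.110) from 11-month WT, and 11-month minus 2-month WT was 0.408 (-0.0762 to 0.880). With fewer than 20 covered positions 304 windows (18.8%) were unmethylated, and with fewer than 40 there were 2324 (27.5%). Under a limit of 2% there were 378 windows (7.04%), with levels of 0.137%, 0.552% and 0.296% in the order of pools above, 11-month minus 2-month WT at 0.256 and Tet2KO minus 11-month WT at -0.415. Under a limit of 10% there were 2189 (40.7%), with levels of 2.01%, 2.81% and 2.44% and Tet2KO differences of -0.427 from 2-month WT and -0.800 from 11-month WT. With the deposited fraction as the level 21.9% were unmethylated, with levels of 0.779%, 1.58% and 1.17% and Tet2KO differences of -0.391 and -0.797. The cause of these shifts was not tested, but a limit on the level bounds the levels it admits. Counting 1 window per locus left 1052 windows (23.7%). With 5 kb in place of 2 kb from gene ends, 21.8% of unmethylated and 51.7% of highly methylated CpG-poor windows lay inside genes; this was added after the data were seen.

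No paired analysis was possible because the files hold 1 pooled value per group, and leaving out a library was not run for the same reason. With 1 pool per group, differences have no replicate check.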
